A study of Mus musculus with 6 samples.

Results

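Primitive endoderm is the extraembryonic layer that separates from the pluripotent epiblast in the blastocyst, and 10 of its regulators and markers were followed here out of 24393 features counted in each library. They were picked by gene symbol, around a difference in *Gata6* between *HOXA13*-overexpressing and control mouse embryonic stem cells. That difference was already known from these same libraries, so that all values of the 10 genes in this contrast are a description. No p-value is given for them, and which of them passed a threshold is also only a description. The question was whether the higher *Gata6* came with the other genes of the program. The RNA came from 3 control and 3 HOXA13 cultures of non-differentiated KH2 mouse embryonic stem cells, with the strain of both groups given in the labels as C57/BL/6. The HOXA13 cells carry human *HOXA13* with an N-terminal FLAG tag, targeted by FLP recombination into a doxycycline-controlled locus, and correctly targeted clones were picked after hygromycin selection. What the control cells carry at that locus is not given in the sources used here. The labels give the genotypes as CONTROL and HOXA13 and state that no treatment was applied, and whether doxycycline was present in these cultures is not given in the labels. Both groups grew in serum medium with LIF, the cytokine that holds embryonic stem cells in self-renewal, on irradiated 3T3-Swiss albino fibroblasts as feeder cells. The study's methods call the 3 cultures of each group biological replicates. If they shared an origin, p-values would measure only the spread between these samples.

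In the blastocyst, cells of the inner cell mass at first express both *Nanog* and *Gata6*. *Fgf4* secreted by future epiblast cells acts through FGF receptors and the ERK kinases to favor *Gata6*, and *Gata6* is then followed by *Pdgfra*, *Sox17*, *Gata4* and *Sox7* as primitive endoderm forms. Forced *Gata6* or *Gata4* is known to drive embryonic stem cells towards an extraembryonic endoderm fate. Mature primitive endoderm splits into visceral endoderm, which takes up nutrients through the receptors megalin and cubilin, and parietal endoderm, which lays down a thick laminin and collagen membrane.

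The libraries held between 13494135 and 21766589 counts. Expression is given as CPM, a count scaled to a common library total with TMM factors, and the smallest level taken as detectable, 3 counts, lay between 0.134 and 0.227 CPM per library, which covers counting error only. The human identifier ENSG00000106031, which the files do not pair with a symbol, was counted 6, 0 and 0 times in control and 4298, 4177 and 2881 times in HOXA13 cultures. The stem cell markers *Pou5f1*, *Nanog*, *Sox2*, *Zfp42* and *Esrrb* were between 107 and 783 CPM in all 6 libraries, with *Nanog* higher in HOXA13 cultures, at 312, 348 and 296 CPM in control and 473, 472 and 472 CPM in HOXA13 libraries (log2 ratio 0.57 ± 0.07, edgeR adjusted p = 0.000951). *Sox2* and *Esrrb* passed as higher as well, but each lost the call in 5 of the 14 alternatives. Replicates differed by more than sampling noise, most of all among the controls, where the chi-square of the counts was 12.7 to 34.2 per degree of freedom against 1.89 to 6.03 among the HOXA13 libraries. Differences were tested over 13846 genes by the quasi-likelihood method of edgeR, with Benjamini-Hochberg adjusted p values, and 27.7% of the genes passed the threshold of 0.05. A log2 ratio below is the fitted log2 fold change of HOXA13 over control ± its standard error, and a gene that passed is one under that threshold.

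The 10 genes did not move together. *Gata6* and *Sox7* were higher in every HOXA13 library than in every control library, *Lrp2*, *Lama1*, *Pdgfra* and *Gata4* were lower in every HOXA13 library, *Dab2*, *Cubn*, *Foxa2* and *Sox17* overlapped between the groups, with *Sox17* at 5 counts or fewer in every library. *Sox17* did not pass the filter on low counts. Among the other 9 genes, 2 passed on the higher side, as did 14.4% of all tested genes, and 3 on the lower side, as did 13.3%. Scaled by total counts without TMM factors, the 1994 higher and 1842 lower genes of the whole table became 1576 higher and 2500 lower. The groups did not overlap in 2 genes on the higher side, beside 23.5% of all tested genes, and in 4 genes on the lower side, beside 22.2%, or 45.7% for both sides. Since this contrast was used in the choice of the genes, nothing is read from these counts. The median log2 fold change of the 9 tested genes was -0.80, and that of all tested genes was 0.00.

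**Figure D1:**
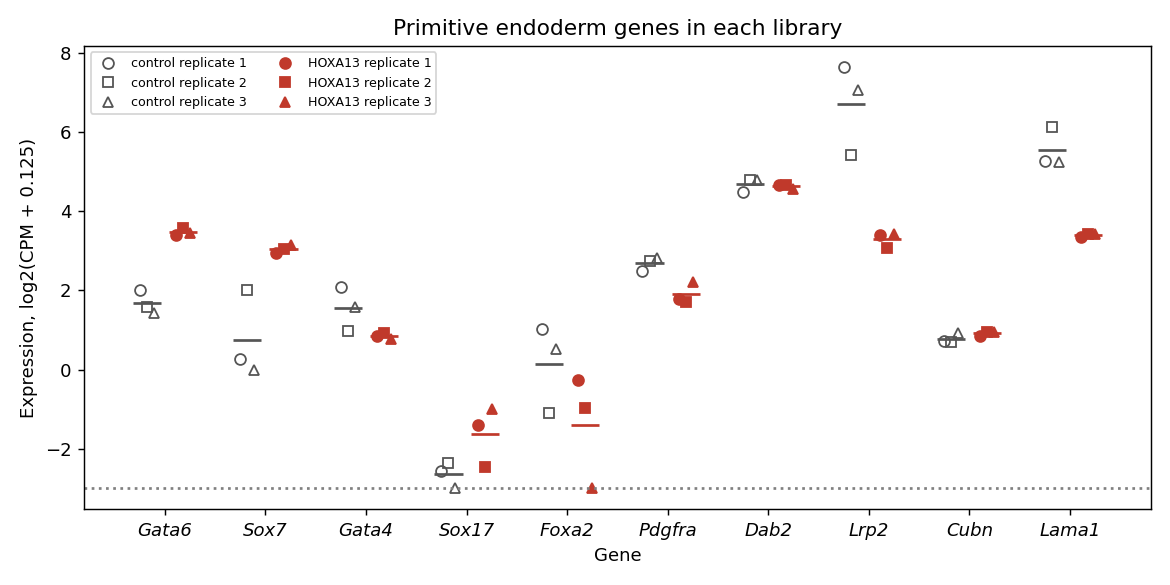
Expression of the 10 primitive endoderm genes in each library as log2 of CPM plus 0.125 (vertical axis), with open grey symbols for the 3 control and filled red symbols for the 3 HOXA13 libraries, horizontal lines at the group means and a dotted line at 0 counts. *Gata6* and *Sox7* sit higher in all 3 HOXA13 libraries, *Lrp2* and *Lama1* sit lower in all 3, and the control symbols of *Lrp2*, *Sox7* and *Foxa2* are widely spread.

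*Gata6* encodes the zinc finger factor at the top of the program and lies on chromosome 18 of mm9, where its gene runs from 11052508 to 11085633 on the plus strand. It was at 3.92, 2.85 and 2.58 CPM in the 3 control libraries and at 10.4, 11.8 and 10.7 CPM in the 3 HOXA13 libraries. The highest control library was thus well under the lowest HOXA13 library. The log2 fold change was 1.80 (standard error 0.18), and leaving out any 1 library moved it between 1.68 and 2.02. The gene *1010001N08Rik* on the opposite strand shares 58 exon bases with *Gata6*, and whether strand was used in counting is not given, but this feature was counted 0 to 3 times in control and 2 to 6 times in HOXA13 cultures, against 42 to 214 counts of *Gata6*.

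*Sox7* encodes an SRY-related factor that follows *Gata6* in primitive endoderm and also acts in vascular endothelium. Its gene lies at chr14:64562511-64569569 of mm9. It was at 1.07, 3.87 and 0.86 CPM in control and at 7.57, 8.20 and 8.69 CPM in HOXA13 libraries. Control replicate 2 stood above the other control libraries and still under every HOXA13 library. The log2 fold change was 2.14 (standard error 0.48), and it was 3.05 without control replicate 2. Without HOXA13 replicate 1, 2 or 3 it was 2.18, 2.13 and 2.08. Over chromosome 14 the median log2 ratio was 0.26, and with every chromosome centred in each library *Sox7* was at 1.92.

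*Gata4*, the GATA factor that acts beside *Gata6* in extraembryonic endoderm (chr14:63817759-63890529), was at 4.15, 1.83 and 2.88 CPM in control and at 1.68, 1.76 and 1.59 CPM in HOXA13 libraries. Control replicate 2 was only just above the HOXA13 libraries. Its log2 fold change was -0.83 (standard error 0.31). It was -1.08 without control replicate 2, -1.17 with every chromosome centred and -0.51 without control replicate 1. The ratio of *Gata6* to *Gata4* counts was 0.946, 1.56 and 0.895 in the control libraries and 6.21, 6.69 and 6.76 in the HOXA13 libraries, so that the pair was near parity in the controls only.

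*Sox17*, which encodes the SRY-related factor that marks both primitive and definitive endoderm (chr1:4481009-4486494), was close to absent from all libraries. It was counted 1, 1 and 0 times in control and 5, 1 and 5 times in HOXA13 cultures. The rate over the 3 HOXA13 libraries was 6.13 times that over the controls, with an exact 95% Poisson interval from 1.34 to 56.9 that covers counting error only, and HOXA13 replicate 2 was at the level of the controls. *Foxa2*, a forkhead factor of visceral endoderm and of the anterior streak (chr2:147868613-147872705), was counted 43, 5 and 26 times in control and 14, 7 and 0 times in HOXA13 cultures. The groups overlapped, with control replicate 2 under HOXA13 replicate 1. The log2 fold change of -1.62 (standard error 0.77) ranged from -2.47 without HOXA13 replicate 1 to -1.10 without control replicate 1.

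The signal receptor of the set was lower. *Pdgfra* encodes the platelet-derived growth factor receptor that marks primitive endoderm cells and supports their survival (chr5:75548316-75594229). It was at 5.53, 6.52 and 6.92 CPM in control and at 3.30, 3.14 and 4.54 CPM in HOXA13 libraries, which gave a log2 ratio of -0.80 ± 0.20. All HOXA13 libraries were under all control libraries, and leaving out 1 library moved the ratio between -0.97 and -0.70. *Pdgfra* is also a gene of fibroblasts, which were present as feeder cells. The 20 genes of a fibroblast list summed to 7358, 10428 and 10481 CPM in control and to 9617, 11023 and 11667 CPM in HOXA13 libraries, and *Pdgfrb*, the related receptor of fibroblasts, averaged 56.8 ± 8.03 CPM (SD, n = 3) over the controls and 66.4 ± 9.15 CPM over the HOXA13 libraries. The sums of the list overlapped between the groups, and the part of feeder cells in the *Pdgfra* level was not tested. In bulk RNA, fewer cells of a type and less RNA per cell cannot be told apart.

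The endocytic receptors of the visceral layer parted from each other. *Lrp2*, which encodes megalin, and *Cubn*, which encodes cubilin, bind each other at the apical surface, and *Dab2* encodes the clathrin adaptor that carries them into the cell. *Lrp2* (chr2:69262397-69424122) was at 201, 42.5 and 134 CPM in control and at 10.5, 8.37 and 10.6 CPM in HOXA13 libraries. Its log2 fold change of -3.69 (standard error 0.51) is a 12.9-fold lower level, and leaving out 1 library moved it between -4.11 and -3.19. Even control replicate 2, the lowest control, was above every HOXA13 library. *Cubn* (chr2:13197965-13413551) was low throughout, at 1.52, 1.49 and 1.77 CPM in control and 1.68, 1.82 and 1.81 CPM in HOXA13 libraries, with a log2 ratio of 0.15 ± 0.22. The number of *Lrp2* counts per *Cubn* count accordingly went from 132.5, 28.5 and 75.7 in control to 6.24, 4.61 and 5.83 in HOXA13 libraries. *Dab2* (chr15:6249788-6390712), which fibroblasts also express, was at 22.5, 27.7 and 27.4 CPM in control and 25.1, 25.3 and 23.7 CPM in HOXA13 libraries. Its log2 fold change was -0.06 (standard error 0.10), and over the 14 alternative fits it ranged from -0.16 to -0.02, while that of *Cubn* ranged from 0.07 to 0.23.

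Promoter windows from 250 bases before to 50 after an annotated start were at hand in the RefSeq promoter table of build GRCm38.p6 for 5 of the 10 genes, and are shown for 4 of them to set the lower genes *Lrp2* and *Pdgfra* beside *Cubn* and *Dab2*, which differed little. No window was used here for *Gata6*, *Gata4*, *Sox17*, *Sox7* and *Lama1*. Coordinates in this paragraph are of GRCm38.p6, sequences run 5′ to 3′ along the strand of the gene, and capitals mark matches to the searched motifs.
Lrp2 (chr2:69585980-69586279, minus strand): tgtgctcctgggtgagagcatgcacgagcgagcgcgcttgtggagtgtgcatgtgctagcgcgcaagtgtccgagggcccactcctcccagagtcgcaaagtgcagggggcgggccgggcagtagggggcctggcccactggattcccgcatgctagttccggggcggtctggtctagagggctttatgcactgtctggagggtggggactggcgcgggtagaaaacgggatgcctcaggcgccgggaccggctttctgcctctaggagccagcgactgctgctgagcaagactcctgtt
Pdgfra (chr5:75152001-75152300, plus strand): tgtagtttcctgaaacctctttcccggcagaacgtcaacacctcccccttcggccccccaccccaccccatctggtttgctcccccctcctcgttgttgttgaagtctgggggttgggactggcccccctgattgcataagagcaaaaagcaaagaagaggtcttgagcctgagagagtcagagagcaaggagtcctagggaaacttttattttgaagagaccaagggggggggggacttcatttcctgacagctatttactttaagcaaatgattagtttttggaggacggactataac
Cubn (chr2:13491827-13492126, minus strand): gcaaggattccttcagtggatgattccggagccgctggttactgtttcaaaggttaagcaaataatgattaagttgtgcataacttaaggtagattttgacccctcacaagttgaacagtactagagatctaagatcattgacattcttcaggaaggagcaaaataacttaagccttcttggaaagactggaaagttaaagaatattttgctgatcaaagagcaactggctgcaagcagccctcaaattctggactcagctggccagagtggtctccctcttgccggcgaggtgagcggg
Dab2, upstream start (chr15:6299539-6299838, plus strand): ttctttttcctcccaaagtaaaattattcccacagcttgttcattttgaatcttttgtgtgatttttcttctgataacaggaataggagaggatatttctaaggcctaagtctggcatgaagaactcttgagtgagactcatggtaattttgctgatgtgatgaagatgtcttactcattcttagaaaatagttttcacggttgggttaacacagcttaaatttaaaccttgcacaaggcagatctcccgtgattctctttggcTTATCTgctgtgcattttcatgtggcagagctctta
The motifs searched on both strands were AGATAA for GATA factors, ACAAT for SOX factors, CAATAAA for HOX13 factors, whose first letters can overlap the end of the SOX motif, and GTAAACA for forkhead factors. They are held by 11.2%, 31%, 4.6% and 3.65% of all 32851 windows of 300 bases. Over the 8 windows of the 5 genes there were 2 matches, both to the GATA motif. One lay in the upstream window of *Dab2*, on the strand opposite to the gene and beginning 15 bases after the start, and the other in the third window of *Foxa2*, 183 bases before the start. The *Lrp2* window was rich in G and C, with 65.0% of its bases and 20 CpG pairs against medians of 52.7% and 7 over all windows, while the windows of *Pdgfra* and *Cubn* had 51% and 44.3% with 5 CpG pairs each. The windows of *Dab2* had 37.7% and 59.3%, with 2 and 19 CpG pairs. A missing match says only that these letters are not in the window.

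*Lama1* encodes the laminin alpha 1 chain, which joins one beta and one gamma chain in the first basement membranes of the embryo (chr17:68046605-68171985). It was at 38.8, 70.5 and 37.7 CPM in control and at 10.1, 10.7 and 10.7 CPM in HOXA13 libraries. The log2 fold change was -2.22 (standard error 0.25), a 4.67-fold lower level, and it moved between -2.38 and -1.88 when 1 library was left out. The HOXA13 libraries were nearly identical and all under the lowest control, while control replicate 2 stood highest. Its partner chains took opposite directions. *Lamb1* was lower, at 447, 376 and 439 CPM in control and 223, 252 and 251 CPM in HOXA13 libraries (log2 ratio -0.80 ± 0.09, edgeR adjusted p = 0.0005), and *Lamc1* was higher, at 519, 814 and 539.6 against 1251, 1240.4 and 1239.9 CPM (log2 ratio 1.00 ± 0.16, edgeR adjusted p = 0.00296). *Lamc1* lies on chromosome 1, where the median log2 ratio was 0.38, and with every chromosome centred it was at 0.64 (adjusted p = 0.00423). The ratio of *Lama1* to *Lamc1* counts lay between 0.0699 and 0.0867 in control and between 0.00804 and 0.00861 in HOXA13 libraries.

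**Figure D2:**
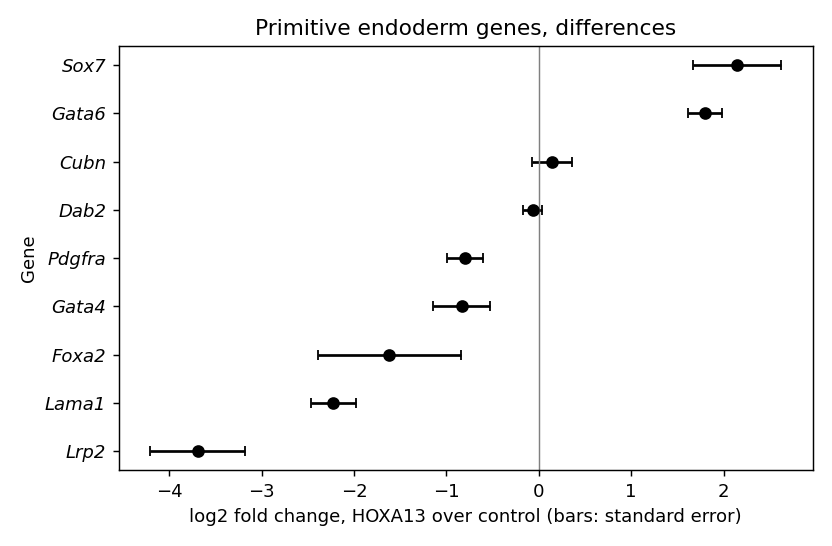
Log2 fold changes of HOXA13 over control for the 9 tested genes, ordered by size, with bars for standard errors from edgeR. *Sox7* and *Gata6* lie to the right at 2.14 and 1.80, *Cubn* and *Dab2* lie around 0, and *Lrp2* lies farthest to the left at -3.69.

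Set per length of merged exons of the GENCODE annotation of mm9, the order of the levels differed between the groups. For *Dab2*, 1374 of 7342 exon bases also lie in a second entry of that name. For *Cubn*, 161 of 11815 also lie in *Gm13270* on the opposite strand, and how reads in shared bases were counted is not given. In control cultures *Lrp2* came first at 7.53 ± 4.76 RPKM (SD, n = 3), followed by *Lama1* at 5.15 ± 1.96 and *Dab2* at 3.53 ± 0.40, whose ranges of 1 SD overlapped. *Gata6* at 0.98 ± 0.22, *Pdgfra* at 0.94 ± 0.11, *Gata4* at 0.76 ± 0.30, *Sox7* at 0.59 ± 0.51 and *Foxa2* at 0.50 ± 0.34 RPKM came next, each overlapping its neighbor. *Cubn* at 0.13 ± 0.013 and *Sox17* at 0.012 ± 0.011 RPKM were lowest and apart from each other. In HOXA13 cultures *Gata6* at 3.44 ± 0.22 and *Dab2* at 3.36 ± 0.12 RPKM came first without differing beyond their spread, and *Sox7* followed at 2.47 ± 0.17. *Lama1* was at 1.10 ± 0.037, *Lrp2* at 0.59 ± 0.075, *Pdgfra* at 0.54 ± 0.11 and *Gata4* at 0.43 ± 0.022 RPKM, and among these *Lrp2* overlapped *Pdgfra* and *Pdgfra* overlapped *Gata4*. *Foxa2* at 0.15 ± 0.15 and *Cubn* at 0.15 ± 0.0068 RPKM overlapped, and so did *Foxa2* and *Sox17*, which was at 0.073 ± 0.052.

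The control cultures were far from uniform in several of the 10 genes. With 0.125 CPM added, the highest control library exceeded the lowest 4.71 times for *Lrp2*, 4.39 times for *Foxa2*, 4.06 times for *Sox7* and 2.18 times for *Gata4*, where the median tested gene had 1.25. Spreads at least as wide were found in 0.802%, 0.997%, 1.18% and 6.72% of all tested genes. *Lrp2*, *Foxa2* and *Gata4* were all highest in control replicate 1, intermediate in control replicate 3 and lowest in control replicate 2. The same order was seen for *T*, which encodes brachyury of the primitive streak, at 181, 10.5 and 85.2 CPM in control replicates 1, 2 and 3, and for *Krt8*, a keratin of early epithelia, at 142, 19.5 and 58.9 CPM. This order was common, with 25.5% of all tested genes, among them *Hhex*, *Fst*, *Fgfr1* and *Lama5*. *Sox7* and *Lama1* took the other course and were highest in control replicate 2. Whether streak-like cells in the control cultures bear on the levels of *Lrp2*, *Foxa2* and *Gata4* was not tested. Among HOXA13 libraries the spread was 1.06 to 1.43 times for the tested genes other than *Foxa2*, which had 6.69.

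**Figure D3:**
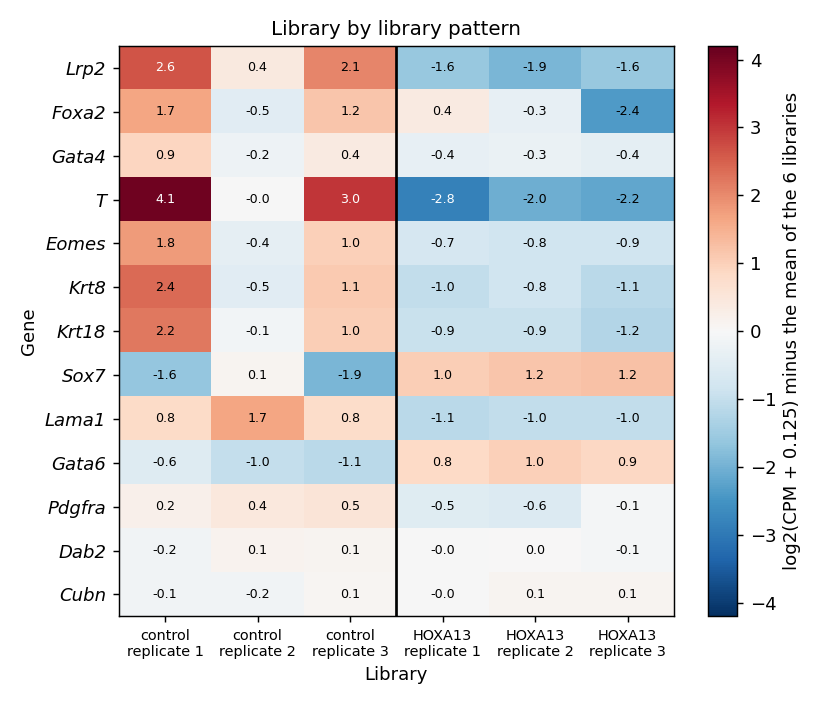
Log2 of CPM plus 0.125 in each library minus the mean of the 6 libraries, as color and number, for the 9 tested primitive endoderm genes and for *T*, *Eomes*, *Krt8* and *Krt18* (rows), with control and HOXA13 libraries in columns to the left and right of the black line. *Lrp2*, *Foxa2* and *Gata4* share with *T*, *Eomes*, *Krt8* and *Krt18* the order of the 3 control libraries, whereas *Sox7* and *Lama1* peak in control replicate 2.

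Genes of the primitive streak and definitive endoderm, cells that can express *Gata4*, *Gata6*, *Sox17*, *Foxa2* and *Pdgfra* as well, were listed beside them. Of the 8 listed genes 6 were tested, with a list median of -1.44. Past the threshold were 3 lower genes and 1 higher gene, beside 13.3% and 14.4% of all tested genes. The list summed to 339, 34.2 and 153 CPM in control and to 26.4, 26.5 and 24.0 CPM in HOXA13 libraries. Among the tested genes *T* (log2 ratio -5.53 ± 0.99, edgeR adjusted p = 0.00519), *Mixl1* (log2 ratio -5.24 ± 1.17, edgeR adjusted p = 0.0126) and *Eomes* (log2 ratio -1.87 ± 0.46, edgeR adjusted p = 0.0181) fell. The calls on *Mixl1* and *Eomes* were lost without each HOXA13 library in turn, that on *Eomes* also without control replicate 3, with adjusted p up to 0.0786 and 0.0835 in these fits. In limma-voom 0 genes of the list passed as lower, with adjusted p = 0.111 for *T*. *Gsc* and *Evx1* overlapped between the groups and passed in edgeR only without control replicate 2 (adjusted p = 0.0139 and 0.0179), and *Evx1* turned from -1.01 to 0.04 without control replicate 1. *Lhx1*, a factor of the streak and its derivatives, did not pass the filter and was counted 269, 2 and 36 times in control and 0, 0 and 1 times in HOXA13 cultures. *Cxcr4*, the chemokine receptor of definitive endoderm, was the higher gene (log2 ratio 1.35 ± 0.23, edgeR adjusted p = 0.00379). It lies on chromosome 1 and had 0.96 with every chromosome centred.

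Other regulators, ligands and early markers of primitive endoderm included *Hhex*, *Fst*, *Pdgfa* and *Cited1* as lower genes. Of 16 genes 9 were tested, and edgeR passed 0 as higher and 4 as lower, beside 14.4% and 13.3% of all tested genes, with a list median of -0.60. At an unadjusted p under 0.05, and with DESeq2 or limma-voom, 0 were higher as well, whereas 1 was higher without control replicate 1 or without control replicate 2, *Cxcl12* in both. This chemokine gene was at 43.7, 99.4 and 87.2 CPM in control and 110.1, 116 and 110.4 CPM in HOXA13 libraries, without overlap. *Hhex*, a homeobox gene of endoderm, fell from 3.97, 2.65 and 3.44 CPM in control to 1.32, 1.60 and 1.13 CPM in HOXA13 libraries (log2 ratio -1.31 ± 0.25, edgeR adjusted p = 0.00636). *Fst*, the activin antagonist follistatin, fell by 0.85 on the log2 scale (SE 0.16, edgeR adjusted p = 0.00634). *Pdgfa*, a ligand of *Pdgfra*, was at 27.1, 42.5 and 32.7 CPM in control and 21.3, 22.5 and 23.9 CPM in HOXA13 libraries (log2 ratio -0.60 ± 0.16, edgeR adjusted p = 0.0251), so that this ligand and the receptor were both lower. The ligand gene *Pdgfc* did not pass (log2 ratio -0.09 ± 0.25, edgeR adjusted p = 0.834) and overlapped between the groups. It averaged 54.5 CPM in control and 51.1 CPM in HOXA13 libraries. *Cited1*, a transcriptional co-regulator, was lower (log2 ratio -2.38 ± 0.72, edgeR adjusted p = 0.0412). It was at 6.78, 0.61 and 3.39 CPM in control and at 0.66, 0.83 and 0.60 CPM in HOXA13 libraries, so that the groups overlapped. Its call was lost in every fit without 1 library other than control replicate 2, with adjusted p between 0.0703 and 0.154, as well as in limma-voom (adjusted p = 0.164) and with a replicate block (adjusted p = 0.0665). The call on *Pdgfa* was lost without control replicate 3 or any HOXA13 library, with edgeR adjusted p up to 0.111. *Hnf4a*, a regulator of visceral endoderm, had at most 1 count in any library.

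In the list of visceral endoderm genes, several genes of secreted transport proteins were low. *Ttr* had 0 counts in all 6 libraries, *Afp* at most 4 and *Rbp4* at most 11, whereas *Apoe* averaged 279 CPM in control and 425 CPM in HOXA13 cultures. Of the 12 genes 5 were tested, with a list median of -1.13. EdgeR passed 2 as higher and 2 as lower, beside 14.4% and 13.3% of all tested genes. *Lrpap1*, the chaperone that escorts megalin through the secretory pathway, was higher at 208, 195 and 194 CPM in HOXA13 against 119, 104 and 115 CPM in control libraries (log2 ratio 0.82 ± 0.07, edgeR adjusted p = 0.00018), opposite in direction to *Lrp2*. *Apoe* was the other higher gene (log2 ratio 0.61 ± 0.18, edgeR adjusted p = 0.0379), and its call was lost without control replicate 3 or any HOXA13 library, with adjusted p up to 0.130. The apolipoprotein gene *Apob* (log2 ratio -1.27 ± 0.20, edgeR adjusted p = 0.00309) and the transferrin gene *Trf* (log2 ratio -1.13 ± 0.20, edgeR adjusted p = 0.00529) were lower. *Amn*, the membrane partner of cubilin, was at 1.11, 0.54 and 1.31 CPM in control and 0.20, 0.44 and 0.53 CPM in HOXA13 libraries and did not pass (log2 ratio -1.41 ± 0.47, edgeR adjusted p = 0.055), but it did with library size alone (adjusted p = 0.0468) and without control replicate 2 (adjusted p = 0.0131).

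Of the 12 genes of the extraembryonic matrix and parietal endoderm list 11 were tested, with a list median of -0.08. *Lamc1* alone passed as higher and *Lamb1* alone as lower, beside 14.4% and 13.3% of all tested genes. *Col4a1*, *Col4a2*, *Hspg2* and *Sparc*, which parietal endoderm shares with fibroblasts, were between 386 and 1035 CPM on average in both groups, with log2 fold changes between -0.14 and 0.04. The lower list count was 3 without control replicate 1, where *Col4a1* and *Nid1* also passed, and 2 without control replicate 2.

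The FGF and ERK list joins the pathway that favors *Gata6* in the embryo. All 14 genes were tested, with a list median of 0.19. Higher genes that passed were 4 and lower ones 2, beside 14.4% and 13.3% of all tested genes. The receptor *Fgfr2* rose from 20.6, 23.6 and 30.2 CPM in control to 93.2, 92.9 and 91.0 CPM in HOXA13 libraries (log2 ratio 1.90 ± 0.13, edgeR adjusted p = 6.32e-05), about the size of the *Gata6* difference. *Fgfr1*, the more abundant receptor, did not pass (log2 ratio 0.18 ± 0.09, edgeR adjusted p = 0.185), although it did without control replicate 1 (adjusted p = 0.0349). The ligand *Fgf4* fell from 55.6, 126 and 88.8 to 44.4, 42.3 and 46.5 CPM (log2 ratio -1.02 ± 0.25, edgeR adjusted p = 0.0191), and the kinase gene *Mapk3*, which encodes ERK1, fell by 0.43 on the log2 scale (SE 0.08, edgeR adjusted p = 0.00519). The ERK-induced genes *Spry2* (log2 ratio 1.08 ± 0.28, edgeR adjusted p = 0.022), *Etv4* (log2 ratio 0.84 ± 0.19, edgeR adjusted p = 0.0142) and *Dusp6* (log2 ratio 0.49 ± 0.08, edgeR adjusted p = 0.0035) were higher, while *Spry4* (log2 ratio 0.51 ± 0.32, edgeR adjusted p = 0.273) and *Etv5* (log2 ratio 0.20 ± 0.11, edgeR adjusted p = 0.204) did not pass and overlapped between the groups. *Spry4* did pass without control replicate 2 (edgeR adjusted p = 0.0106) and *Etv5* without control replicate 1 (edgeR adjusted p = 0.00659). The calls on *Fgf4*, *Spry2* and *Etv4* were lost without control replicate 3 or any HOXA13 library, with adjusted p up to 0.0882, 0.0899 and 0.057. *Spry2* lies on chromosome 14, where the median log2 ratio was 0.26. With every chromosome centred *Spry2* was at 0.85, *Etv4* at 0.93 and *Dusp6* at 0.51.

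**Figure D4:**
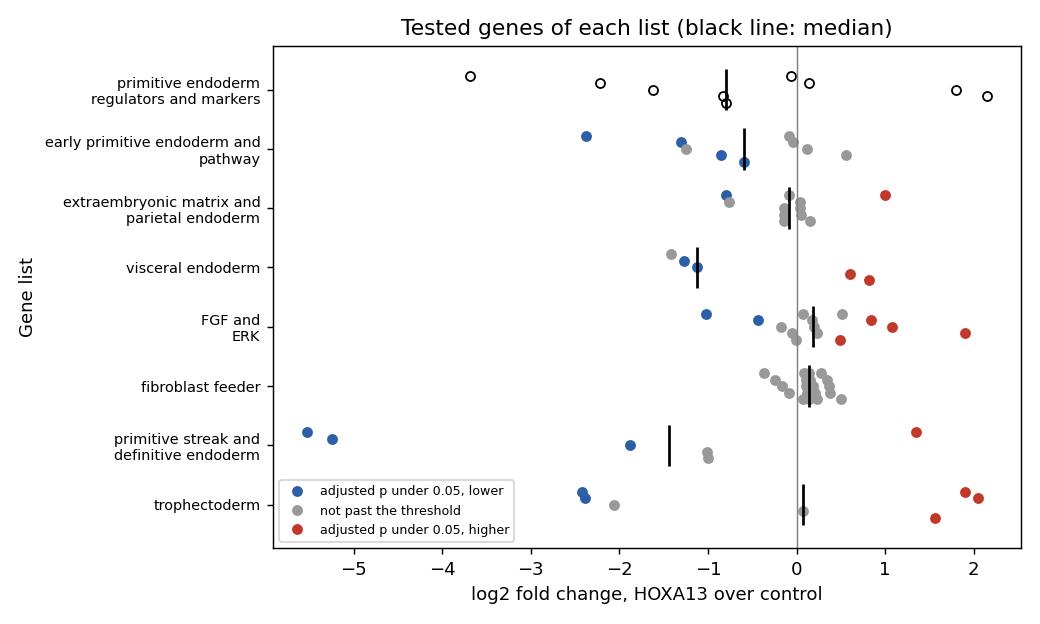
Log2 fold changes of HOXA13 over control (horizontal axis) for the tested genes of the primitive endoderm set and of 7 further lists, with open circles for the primitive endoderm set and, in the other lists, red for genes higher and blue for genes lower at an adjusted p under 0.05, grey for the others and a black line at each median. The primitive endoderm set spans from -3.69 to 2.14, while the fibroblast genes cluster around 0.14 with no colored point.

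Feeder genes gave a narrow distribution beside these lists. All 20 fibroblast genes were tested and 0 passed in edgeR, beside 27.7% of all tested genes. At an unadjusted p under 0.05, 1 was higher and 1 lower. DESeq2 passed 1 as higher and 1 as lower, and limma-voom passed 0. Their median log2 fold change was 0.14. Without control replicate 2, 3 passed as higher and 1 as lower, and without control replicate 1 these numbers were 1 and 2.

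Among paralogs of the regulators, *Gata2* and *Gata3* of the GATA family were higher. *Gata2* rose from 3.83, 7.54 and 5.96 CPM in control to 19.7, 22.0 and 22.1 CPM in HOXA13 libraries (log2 ratio 1.90 ± 0.22, edgeR adjusted p = 0.000624), and *Gata3* rose from 5.13, 5.03 and 4.75 to 14.9, 15.4 and 13.8 CPM (log2 ratio 1.57 ± 0.12, edgeR adjusted p = 8.86e-05). Neither belongs to the primitive endoderm program, and both act in trophectoderm. *Gata1* and *Gata5* were not tested, with at most 11 counts in a library, nor were *Sox18* and *Foxa1*, with at most 16. *Foxa3* was lower (log2 ratio -1.37 ± 0.31, edgeR adjusted p = 0.0143), a call lost without HOXA13 replicate 1 or 3 with adjusted p up to 0.0768. *Lama2*, *Lama3*, *Lama4* and *Lama5* did not pass, with log2 fold changes between -0.34 and 0.33.

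The genes most like *Gata6* over the 6 libraries were sought by the root mean square difference of log2 CPM, with 0.125 CPM added and each gene centred on its mean. Outside the set, the 5 nearest of 13846 tested genes were *Cpsf4l*, *Zfp947*, *Fignl2*, *Plekhh1* and *F11r*, with differences of 0.083 to 0.146 on the log2 scale. Of the set, *Sox7* came nearest, at 0.73 and rank 1803. *Cubn*, *Dab2*, *Gata4* and *Pdgfra* stood at ranks 4337, 8420, 12739 and 12896, and *Foxa2*, *Lama1* and *Lrp2* at 13688, 13711 and 13817, close to the end of the order. The measure spans all 6 libraries, so it takes in the group difference around which the set was chosen. The order of the set largely follows the log2 fold changes given above and is a description only.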

How the data were processed

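The authors made stranded poly(A) libraries, aligned reads against mm9 using Tophat and deposited the raw counts that HTSeq gave per gene, 1 file per library, without normalization or pooling. The submitters' processing notes name TopHat2 2.0.14 and HTSeq 0.6.1p1, while the study's methods give another Tophat version. Annotation, counting mode and strand setting are not given in the sources used here. Groups and replicate numbers come from the sample titles.

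From these counts, edgeR 4.0.16 in R 4.3.3 was run over all 6 libraries with filterByExpr (minimum count 10, minimum total 15), TMM factors, glmQLFit and glmQLFTest without covariates, and Benjamini-Hochberg adjustment over 13846 genes (threshold 0.05, prior count 0.125). Standard errors were derived as |log2 fold change|/√F. The study names DESeq2, which was run as an alternative (1.42.0), as was limma-voom (limma 3.58.1), with RLE factors, library size alone, no filter, a minimum of 10 counts per library, a block for the replicate number, each chromosome centred in each library, and each library left out, 14 alternatives in all. The code was first tested on simulated data.

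Positions and exon lengths are from GENCODE on NCBIM37 (mm9), where 22297 of 24393 features were placed. The members and lists were chosen with earlier results of these data known. Named are all members, list genes past the threshold (the largest 3 in each direction where more than 6 passed), fixed partner genes (*Amn*, *Lrpap1*, *Pdgfa*, *Lamb1*, *Lamc1*, *Fgf4*, *Fgfr1*, *Fgfr2*), the 5 genes nearest to *Gata6*, paralogs of members and the 5 stem cell markers. Genes named for low counts or as fibroblast-shared matrix genes, and *Pdgfc*, *Cxcl12*, *Nid1*, *Cdx2*, *Spry4*, *Etv5*, *Gsc*, *Evx1*, *Lhx1* and the *Lama* paralogs' values, were chosen after their values were seen. Figures were drawn with matplotlib 3.10.9.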

Additional observations from a re-analysis of the deposited data

How the results depend on the processing

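None of the 9 tested primitive endoderm genes changed direction in the 14 alternatives run, or in 13 for *Foxa2*, which a minimum of 10 counts in every library leaves out. The size moved by more than 1 SD of the replicates for *Sox7* without control replicate 2, at 3.05. Of the recomputed counts of genes that passed, in the set, in each list and over all genes, 201 were within 1.5 times the reported count and 51 were not. The cause was not tested. Leaving out 1 library gave 1 to 2 higher and 2 to 5 lower genes of the set, the 5 without control replicate 2, where *Gata4* and *Foxa2* joined. *Sox7* was not among the higher genes without HOXA13 replicate 1, 2 or 3. *Pdgfra* was not among the lower genes without control replicate 3 or HOXA13 replicate 1 or 2. Over all tested genes, the same fits gave 1134 to 2428 higher and 904 to 2579 lower. In the same fits, the FGF and ERK list had 2 to 6 higher and 1 to 3 lower genes, the early primitive endoderm list 0 to 1 higher and 2 to 5 lower, the matrix list 1 to 3 lower, the fibroblast list 0 to 3 higher and 0 to 2 lower, the streak list 1 to 7 lower, the trophectoderm list 0 to 3 lower and the visceral endoderm list 1 to 2 higher.

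Among fits with all libraries, the fibroblast list gave 1 higher and 1 lower gene with DESeq2, 1 lower with RLE factors, 1 lower with library size alone and 2 lower with each chromosome centred. The streak list gave 5 lower genes with no filter and 0 with limma-voom, and the trophectoderm list 1 lower with limma-voom. Library size alone moved the median log2 ratio by -0.073, the other settings by less.

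No pairing by replicate number was seen, as same-numbered libraries had correlations of -0.0154, -0.0454 and 0.0182 in their deviations from the group means. With 3 libraries a group, this cannot show whether same-numbered cultures were handled together. With a replicate block 1696 genes were higher and 1476 lower, and the fibroblast list had 2 higher and 1 lower. Having 3 libraries a group and floors of 0.134 to 0.227 CPM limits what can be said of *Sox17* and *Foxa2*.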

Other observations

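The trophectoderm list, the other extraembryonic lineage, was divided. Of its 8 genes 7 were tested, with a list median of 0.08. In HOXA13 cultures edgeR passed 3 as higher and 2 as lower, beside 14.4% and 13.3% of all tested genes. *Tfap2c*, which encodes a factor of trophectoderm and germ cells that naive stem cells also express, rose from 50.1, 50.4 and 60.8 CPM in control to 218, 226 and 224 CPM in HOXA13 libraries (log2 ratio 2.05 ± 0.09, edgeR adjusted p = 8.21e-06). It was past the threshold in all 14 alternative fits, as were *Gata2* and *Gata3*. The keratin genes *Krt8* and *Krt18* fell, by 2.42 (SE 0.60, edgeR adjusted p = 0.0196) and 2.39 (SE 0.51, edgeR adjusted p = 0.011) on the log2 scale. The call on *Krt8* was lost without any 1 of the HOXA13 libraries, with adjusted p up to 0.097, and in limma-voom (adjusted p = 0.0758), and that on *Krt18* without HOXA13 replicate 1 or 3, with adjusted p up to 0.0636. *Cdx2*, a defining factor of trophectoderm, did not pass (log2 ratio 0.08 ± 0.54, edgeR adjusted p = 0.933), and *Elf5*, which did not pass the filter on low counts, was counted 1, 0 and 2 times in control and 5, 8 and 8 times in HOXA13 cultures.

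The sum of the 10 primitive endoderm genes was 280.3, 158 and 215 CPM in the control libraries and 71.2, 71.5 and 72.6 CPM in the HOXA13 libraries. Most of the control sum was *Lrp2* and *Lama1*.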
